A study of Mus musculus with 18 samples.

Results

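Early neural and neural crest genes were followed by 8 named members: the zinc finger factors ZIC1, ZIC2 and ZIC5, the SOX factors SOX3 and SOX11, the intermediate filament nestin (NES), the factor RFX4 and the endothelin receptor EDNRB. They were picked by name, with earlier results of these data known. All probes of the array table that carry one of these symbols were taken. The members make up 8 of the 30854 gene names of the table with 18 probes in all. Total RNA was measured on 18 Illumina MouseWG-6 v2.0 arrays, 3 for each of 6 groups. Murine embryonic stem (ES) cells grown on PA6 cells, a mouse bone marrow stromal line, formed the groups ES/PA6 -GFs (no growth factor), ES/PA6 FGF2 (20 ng/ml) and ES/PA6 BMP4 (10 ng/ml), and PA6 cells alone formed PA6 -GFs, PA6 FGF2 and PA6 BMP4 at the same doses. The BMP4 dose is that of the sample records, while the study's methods name a lower dose. All 6 groups were kept in serum-free medium and collected on day 3. Per the study's methods the ES line is a tau-EGFP knock-in, in which the promoter of tau, a microtubule protein of neurons, drives a green fluorescent protein, and all 3 co-culture groups share it. Each biological replicate is described as 1 well per condition, so that replicates 1, 2 and 3 of the co-cultures are treated below as sets 1, 2 and 3. RNA of a co-culture holds both cell types, and for every value below fewer cells of a type and less RNA per cell cannot be told apart.

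Neural fate is an early choice of the embryonic ectoderm, and BMP signals turn ectoderm away from it toward epidermis, while intermediate signals at the edge of the neural plate give the neural crest. SOX3 belongs to the SOXB1 factors that keep neural progenitors undifferentiated, ZIC factors act in the neural plate and its border, and SOX11 is a SOXC factor of early neural differentiation. Nestin is a filament protein of neural progenitors, RFX4 is a winged helix factor of the neural tube, and EDNRB is the receptor through which endothelins act on neural crest and its pigment and enteric derivatives. PA6 stroma is known for its activity in directing ES cells toward a neural fate.

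The labelled cell types carried their markers. Of 11 markers of pluripotent and epiblast cells such as POU5F1 and NANOG, 9 to 10 were detected on each co-culture array and 3 to 5 on each PA6 array, with summed linear levels of 99406 to 136218 against 927 to 1181. Of 11 markers of the PA6 stroma, 9 to 11 were detected on every array, and their summed level was 62060 to 98312 in co-cultures against 149760 to 190548 in PA6 cells alone. A probe counted as detected where its detection p was under 0.05, which held for 17125 to 20412 probes per array.

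Of the 18 member probes, 11 were detected on at least 3 arrays and were kept, and 7 were not detected on any array. The single ZIC5 probe was among those 7, with group means between 4.95 and 5.08 on the log2 scale, so that ZIC5 has no value above background and was not tested. The other 7 members were tested, each by its probe with the largest mean, and 4 of them (ZIC2, SOX11, NES and EDNRB) had a further kept probe. ZIC2 and ZIC5 are neighbours on mouse chromosome 14 with 0 protein-coding genes between them, as are ZIC1 and ZIC4 on chromosome 9.

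The promoters of ZIC1, RFX4 and EDNRB are shown because these members changed together under BMP4. RefSeq windows of GRCm38.p6 were matched by symbol for 6 of the 8 members (7 windows, RFX4 having several starts), and the 250 bases before the start were read 5′ to 3′ on the gene's strand. The ZIC1 window is chr9:91365769-91366018 (minus strand), the first RFX4 window chr10:84755798-84756047 (plus strand) and the EDNRB window chr14:103843702-103843951 (minus strand). Capitals mark matches, reverse complements included, to the GC-rich SMAD motif GGCGCC, to the SMAD box CAGAC and to the SOX core ACAAT, and no matches overlap in the printed windows.
ZIC1: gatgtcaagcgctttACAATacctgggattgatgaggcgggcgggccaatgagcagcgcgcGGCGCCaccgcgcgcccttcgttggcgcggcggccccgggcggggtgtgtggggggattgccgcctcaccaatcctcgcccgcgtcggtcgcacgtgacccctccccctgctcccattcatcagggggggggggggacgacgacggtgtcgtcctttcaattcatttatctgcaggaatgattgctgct
RFX4: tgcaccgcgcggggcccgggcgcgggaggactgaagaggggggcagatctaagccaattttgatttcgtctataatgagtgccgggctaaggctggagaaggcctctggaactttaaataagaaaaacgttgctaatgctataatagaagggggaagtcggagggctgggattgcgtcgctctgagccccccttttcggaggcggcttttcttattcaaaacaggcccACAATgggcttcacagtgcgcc
EDNRB: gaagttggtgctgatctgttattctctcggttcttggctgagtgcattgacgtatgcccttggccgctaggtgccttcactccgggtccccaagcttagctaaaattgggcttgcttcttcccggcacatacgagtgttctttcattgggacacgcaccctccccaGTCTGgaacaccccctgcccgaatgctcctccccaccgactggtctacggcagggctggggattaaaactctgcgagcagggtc
The GC-rich SMAD motif was found in 1 of the 7 member windows (ZIC1) and in 9.59% of all 32851 windows of this length, the SMAD box in 4 member windows and 42.2% of all, and the SOX core in 3 member windows and 27.7% of all. The printed windows held 27 (ZIC1), 15 (RFX4) and 11 (EDNRB) CpG pairs, against a median of 6 over all windows. These matches describe letters in a window and no binding was measured.

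Without growth factors all 7 tested members were higher in co-cultures than in PA6 cells alone. A gene was called at an adjusted p under 0.1 and a log2 fold change over 1 in size, and by this rule 19.4% of all 16446 genes were called higher and 39.0% were called in either direction, so a large share of the table differed between these cultures. None of the 7 probes was detected on a PA6 -GFs array, and each fold is therefore a lower bound taken against the lowest detected signal of the PA6 arrays. SOX11 was at least 27.2-fold higher, EDNRB at least 10.3-fold, NES at least 5.77-fold, ZIC2 at least 4.995-fold, ZIC1 at least 4.14-fold, RFX4 at least 3.31-fold and SOX3 at least 1.85-fold (adjusted p from 4.32e-10 for ZIC2 to 0.0011 for RFX4). The second ZIC2 probe hardly differed, at 6.30 in co-cultures against 6.01 in PA6 cells (0.30 ± 0.211; limma adjusted p 0.227), and was not called. The second probes of SOX11, NES and EDNRB were called higher. The SOX3 difference of 1.81 fell short of the fold threshold with the cubic spline or no background correction, where 6 of 7 members were called. Of the tested probes, that of SOX11 alone was detected on any PA6 array, on 4 of 9, and all 9 lay between 6.05 and 6.42. The second SOX11 probe was detected on no PA6 array. The other 6 tested probes lay at or below 5.90 on all 9 PA6 arrays. These 6 passed the detection filter through co-culture arrays alone, so the direction of their difference was largely set by the filter.

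**Figure D1:**
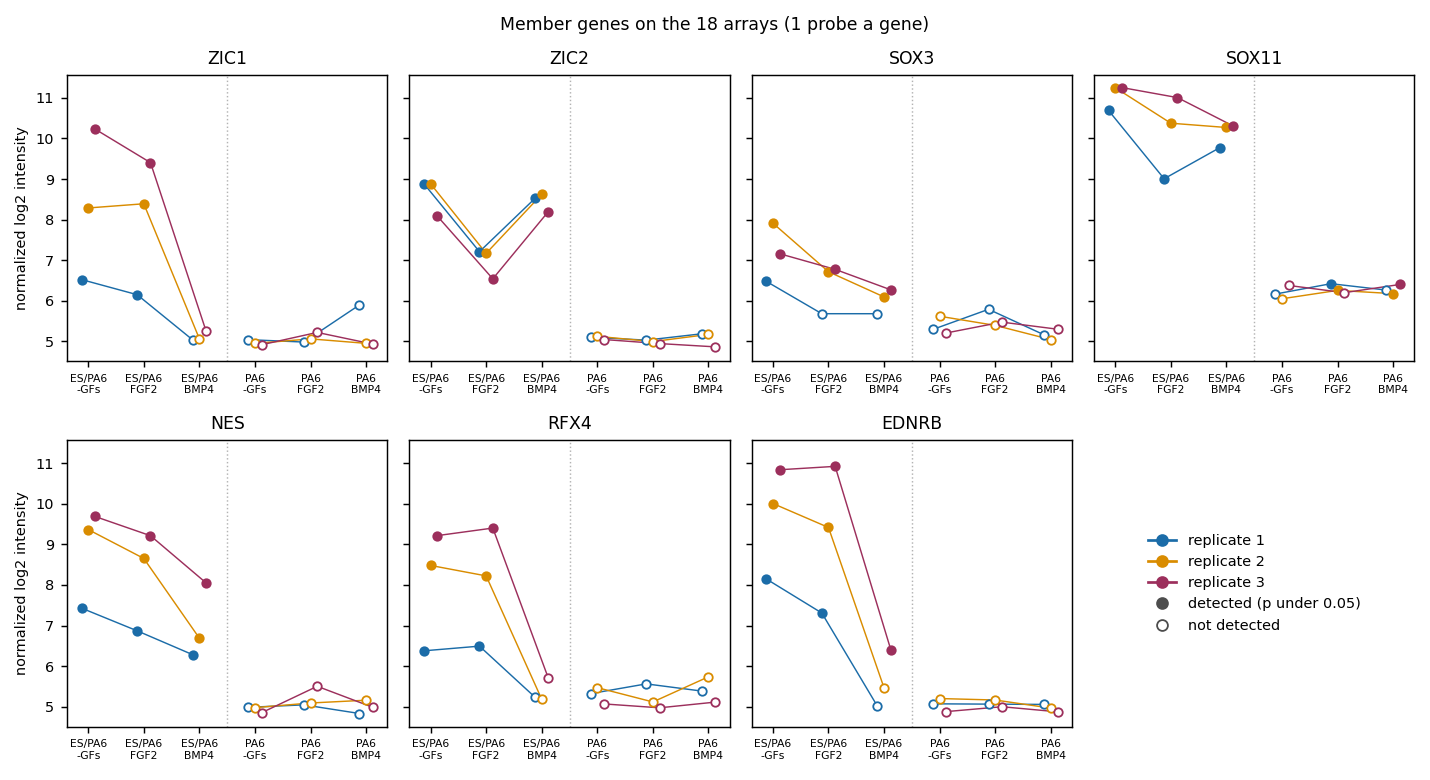
Normalized log2 intensity of the 7 tested members (1 probe a gene) on all 18 arrays; colours mark the replicate number, lines join arrays of 1 replicate within a culture type, and open circles are arrays on which the probe was not detected. ZIC1 and RFX4 are detected on all 6 ES/PA6 -GFs and FGF2 arrays and on 0 of 3 ES/PA6 BMP4 arrays, whereas ZIC2 is lowest under FGF2.

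The question of the BMP4 comparison was how the co-cultures with BMP4 differed from those without a factor. EDNRB, ZIC1 and RFX4 fell, and the other members were called neither higher nor lower. Thus 3 of the 7 tested members were called, all lower, where 0.760% of all genes were called and 0.450% were called lower. As the members were chosen with earlier results of these data known, these shares describe them and are no test. The median log2 fold change was -1.82 over the members and -0.0035 over all genes, and 6 of the 7 had an unadjusted p under 0.05. The arrays of the 2 groups did not overlap for EDNRB, ZIC1, RFX4, SOX3 and SOX11, while NES and ZIC2 overlapped. With 3 against 3 arrays, groups without overlap reach an exact permutation p of 0.1 at the smallest. No share over all genes was taken for overlap, for unadjusted p or for the sign of differences within sets, here or below. Such counts therefore only describe the members.

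EDNRB was at 8.15, 10.01 and 10.84 on the -GFs arrays of sets 1, 2 and 3 and at 5.01, 5.46 and 6.41 on the BMP4 arrays. The highest BMP4 array lay below the lowest -GFs array, and the BMP4 array of set 3 was the single one with a detected signal. The mean dropped by 4.04 ± 0.701 (SE; log2) to 5.63 ± 0.713 from 9.66 ± 1.38 (SD, n = 3; limma adjusted p 0.0129). A second EDNRB probe read 6.09, 7.49 and 8.44 without a factor and was not detected with BMP4, at least 2.60-fold lower, with an adjusted p of 0.146 and of 0.0188 with replicate as a block. The EDNRB call was kept when any 1 array was left out and was lost with set 2 left out (adjusted p 0.219) and in a fit of the co-culture arrays alone (0.21).

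ZIC1 was at 6.52, 8.29 and 10.23 in sets 1, 2 and 3 without a factor and at 5.04, 5.06 and 5.26 with BMP4, where no array detected it. ZIC1 was at least 5.24-fold lower with BMP4 (8.35 ± 1.86 against 5.12 ± 0.119, SD, n = 3; adjusted p 0.0605). RFX4 was at 6.38, 8.48 and 9.21 without a factor and at 5.23, 5.18 and 5.70 with BMP4, again undetected on all 3 arrays. RFX4 was at least 4.19-fold lower (8.02 ± 1.47 against 5.37 ± 0.284, SD, n = 3; adjusted p 0.0649). Both genes thus ended at background. Both calls were lost with set 2 (adjusted p 0.365 for ZIC1 and 0.482 for RFX4) or set 3 (0.105 for each) left out, in the fit of the co-culture arrays alone (0.347 and 0.361), and without -GFs replicate 2 or 3 or BMP4 replicate 1 or 2 (0.142 to 0.162 for ZIC1 and 0.167 to 0.214 for RFX4). The ZIC1 call was also lost without BMP4 replicate 3 (0.102), and the RFX4 call with no filter on dim probes (0.106).

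NES, SOX3 and SOX11 were detected with BMP4 on 3, 2 and 3 arrays. NES was at 7.43, 9.36 and 9.69 without a factor and at 6.28, 6.69 and 8.05 with BMP4, a log2 difference of -1.82 ± 0.583 (SE; adjusted p 0.194). BMP4 minus -GFs was -1.15, -2.68 and -1.64 in sets 1, 2 and 3, although the BMP4 array of set 3 lay above the -GFs array of set 1. SOX3 was at 6.48, 7.91 and 7.16 without a factor and at 5.68, 6.10 and 6.27 with BMP4 (-1.17 ± 0.315; adjusted p 0.107). SOX11 was at 10.69, 11.25 and 11.25 without a factor and at 9.77, 10.27 and 10.31 with BMP4 (-0.95 ± 0.341; adjusted p 0.272), close to the fold threshold in each set. The 95% interval of the SOX11 difference ran from -1.67 to -0.22.

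Comparing wells of the same set changed the BMP4 calls. With a term for the replicate within each culture type (a block), 5 of 7 members were called lower, where 1.31% of all genes were called. EDNRB, ZIC1 and RFX4 were joined by NES (limma adjusted p 0.00196) and SOX3 (0.00794). This fit still shared 1 estimate of the spread with the PA6 arrays, where most of these probes lay at background. The SD of NES was 0.0745 to 0.252 in the PA6 groups and 0.927 to 1.22 in the co-culture groups. A block fit of the co-culture arrays alone is not given, so these p-values do not rest on paired co-culture wells alone. SOX11 stayed under the fold threshold, while its second probe, at 11.28, 12.11 and 12.44 without a factor and 9.75, 10.85 and 11.25 with BMP4, was called with the block (-1.33; adjusted p 0.00689) and not without it (0.324). The second NES probe was at 6.07, 6.44 and 8.14 without a factor and was not detected with BMP4 (at least 1.90-fold lower), and was likewise called only with the block (adjusted p 0.0353, against 0.142).

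**Figure D2:**
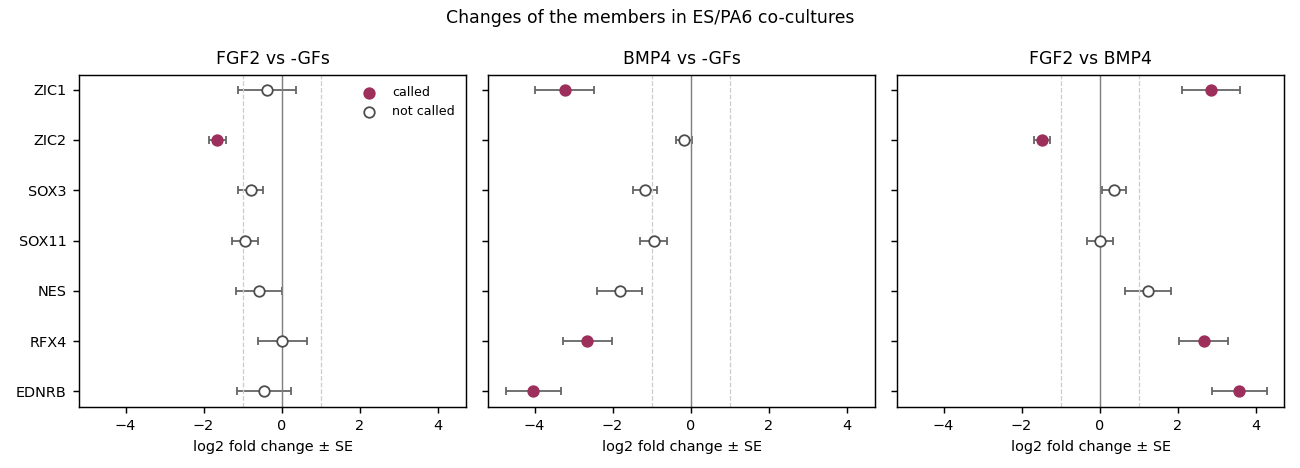
Log2 fold change ± SE of the 7 tested members in the 3 co-culture comparisons, without a replicate block; filled points were called and dashed lines mark the fold threshold of 1. EDNRB, ZIC1 and RFX4 are called lower with BMP4 and higher with FGF2 than with BMP4, and ZIC2 is called lower with FGF2 in both comparisons that hold FGF2.

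Markers of other cells moved beside the BMP4 results. The summed level of the pluripotent and epiblast markers was 121228 to 136218 without a factor and 121365 to 128677 with BMP4, with 10 of 11 detected on each array. That of the stroma markers was 75093 to 98312 and 62060 to 82974. Of 8 surface ectoderm markers, 5 to 6 were detected without a factor (summed level 2150 to 2780) and 7 with BMP4 (3594 to 6542). Of the 7 tested, 4 were called higher, where 0.760% of all genes were called in either direction. These were the keratins KRT8 (1.47) and KRT14 (2.16), the epidermal factor TRP63 (1.28) and GRHL3 (1.07). Their part in the fall of EDNRB, ZIC1 and RFX4 was not tested. Among 8 mesoderm and primitive streak markers 2 to 4 were detected in either group, at summed levels of 391 to 446 and 507 to 645.

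Under FGF2 the single member called lower was ZIC2, and EDNRB, ZIC1 and RFX4, which were called lower under BMP4, were not called. The call of 1 of 7 members, lower, stood against 3.34% of all genes called and 1.20% called lower. With the block the count was again 1, against 3.55% of all genes. SOX3 (limma adjusted p 0.023) and SOX11 (0.0174) then passed the p threshold and missed only the fold threshold. The median log2 fold change was -0.58 over the members and -0.0078 over all genes, and 3 of 7 had an unadjusted p under 0.05.

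ZIC2 was at 8.89, 8.88 and 8.09 without a factor, at 7.21, 7.17 and 6.54 with FGF2 and at 8.53, 8.62 and 8.20 with BMP4. Every FGF2 array was below every other co-culture array, and the -GFs and BMP4 arrays overlapped. ZIC2 fell by 1.65 ± 0.209 (SE) with FGF2, the mean going from 8.62 ± 0.459 to 6.97 ± 0.374 (SD, n = 3; adjusted p 0.000164), and the differences within sets 1, 2 and 3 were -1.68, -1.72 and -1.55. With BMP4 the difference was -0.17, with a 95% interval of -0.62 to 0.27 (adjusted p 0.89). The ZIC2 call under FGF2 held in all 21 alternative settings, with adjusted p from 3.49e-06 to 0.0138. A second ZIC2 probe, detected on 6 arrays at 6.41 or below, differed by -0.50 ± 0.211 between FGF2 and -GFs and was not called (adjusted p 0.218). ZIC4, the neighbour of ZIC1, was near background in the co-cultures, with group means of 5.70 to 6.62, and was not called.

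The remaining members had these values with FGF2. SOX11 was at 9.01, 10.38 and 11.01, with differences from -GFs of -1.68 in set 1 and -0.25 in set 3 (-0.94 ± 0.341; adjusted p 0.133). SOX3 was at 5.68, 6.72 and 6.78 (-0.79 ± 0.315; adjusted p 0.178) and NES at 6.87, 8.65 and 9.21 (-0.58 ± 0.583; 0.703). The NES arrays of the FGF2 and -GFs groups overlapped, and the FGF2 array of set 1 was the single one of its group without a detected SOX3 signal. ZIC1 was at 6.15, 8.39 and 9.40, RFX4 at 6.49, 8.22 and 9.40 and EDNRB at 7.31, 9.42 and 10.92, with differences from -GFs of -0.37 (95% interval -1.95 to 1.22), 0.01 (-1.32 to 1.35) and -0.45 (-1.94 to 1.04). With the block the intervals were narrower, from -1.45 to 0.72 for ZIC1, -0.81 to 0.84 for RFX4 and -1.10 to 0.20 for EDNRB, and none of the 3 was called. A missed threshold does not show that the 2 groups were alike.

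Epiblast genes moved beside the ZIC2 result. Of the 10 tested pluripotent and epiblast markers, LIN28A (-1.63), DNMT3B (-2.20) and FGF5 (-4.17) fell with FGF2, while the naive state factors NANOG (1.25) and ZFP42 (1.19) rose, and POU5F1 differed by -0.10 and was not called. The summed level of the list was 99406 to 113281 with FGF2 against 121228 to 136218 without a factor, and that of the stroma list 67443 to 83393 against 75093 to 98312. Their part in the fall of ZIC2 was not tested.

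EDNRB, ZIC1 and RFX4 were higher, and ZIC2 lower, with FGF2 than with BMP4. Between the FGF2 and BMP4 co-cultures 4 of 7 members were called, where 2.85% of all genes were called: EDNRB was higher with FGF2 by 3.59 ± 0.701 (adjusted p 0.00633), ZIC1 at least 4.07-fold (0.0356) and RFX4 at least 4.23-fold (0.0204), and ZIC2 was lower by 1.48 ± 0.209 (0.00059). With the block NES was called too (1.24; adjusted p 0.00571, against 0.286 without), so that 5 of 7 were called, against 3.27% of all genes. SOX11 (0.01) and SOX3 (0.38) were not called, with 95% intervals of -0.71 to 0.74 and -0.29 to 1.04. The EDNRB, ZIC1 and RFX4 calls were lost with set 2 left out (adjusted p 0.105, 0.273 and 0.2), those of ZIC1 (0.19) and RFX4 (0.145) in the fit of the co-culture arrays alone, and that of ZIC1 without FGF2 replicate 2 (0.114) or 3 (0.147) or BMP4 replicate 2 (0.104). The ZIC2 difference shrank to -0.997 without background correction and to -0.99 with the cubic spline, just under the fold threshold, at adjusted p 0.000702 and 0.000714.

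The co-culture sets differed widely in these genes. In the -GFs group the range over the 3 arrays was 3.71 for ZIC1, 2.84 for RFX4, 2.69 for EDNRB, 2.26 for NES, 1.43 for SOX3, 0.80 for ZIC2 and 0.56 for SOX11, against a median range of 0.40 over all 16446 genes. Set 3 was higher than set 1 for 6 members, and for ZIC2 it was lower by 0.80. The same held with FGF2, where set 3 exceeded set 1 by 3.25 for ZIC1, 3.61 for EDNRB, 2.91 for RFX4, 2.34 for NES, 2.00 for SOX11 and 1.09 for SOX3, and ZIC2 was lower in set 3 by 0.67. With BMP4 the gap was 0.22 for ZIC1 and 0.47 for RFX4, both at background. For EDNRB it was 1.40, which is no measured size, as the array of set 1 was undetected. For NES, detected on all 3 arrays, it was 1.77. Marker sums of the -GFs arrays, on the log2 scale, were 17.06, 16.89 and 16.91 in sets 1, 2 and 3 for pluripotent and epiblast cells, 16.48, 16.59 and 16.20 for stroma and 11.07, 11.14 and 11.44 for surface ectoderm. The stroma sum was thus lowest and the surface ectoderm sum highest in set 3, and their part in the gap between sets was not tested.

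**Figure D3:**
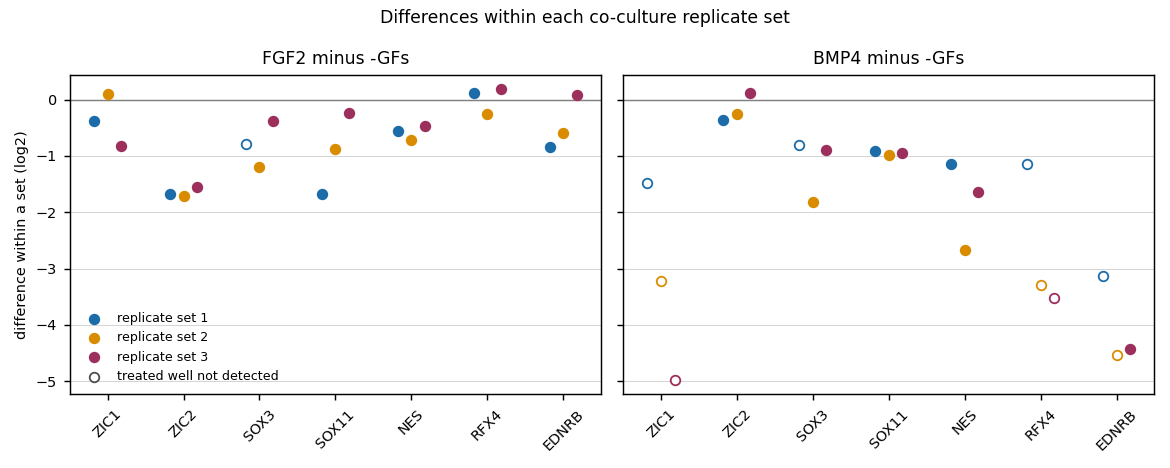
Log2 difference between the FGF2 (left) or BMP4 (right) well and the -GFs well of the same co-culture set, for each tested member; each colour is 1 set, and open points mark a treated well without a detected signal, whose difference is no measured size. The BMP4 difference is below 0 in all 3 sets for every member but ZIC2, and the BMP4 points are open in 3 of 3 sets for ZIC1 and RFX4, in 2 of 3 for EDNRB and in set 1 for SOX3.

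Within sets, the BMP4 well was below the -GFs well in all 3 sets for 6 of the 7 members. Counts of this kind only describe the members, as no share over all genes was taken for them. The BMP4 wells of ZIC1 and RFX4 gave no detected signal in any set, so that only lower bounds can be given there, at least 1.52-, 4.98- and 19.1-fold lower for ZIC1 and at least 1.37-, 5.69- and 9.43-fold lower for RFX4 in sets 1, 2 and 3. EDNRB was at least 4.67-fold lower in set 1 and at least 16.4-fold lower in set 2, where the BMP4 wells were undetected, and differed by -4.43 on the log2 scale in set 3, where it was detected. For ZIC2 the BMP4 differences were -0.36, -0.26 and 0.11. The FGF2 well was below the -GFs well in all 3 sets for ZIC2, SOX3, SOX11 and NES. In sets 1, 2 and 3 the FGF2 differences were -0.80, -1.20 and -0.39 for SOX3, whose FGF2 well of set 1 was undetected. They were -1.68, -0.88 and -0.25 for SOX11 and -0.56, -0.71 and -0.47 for NES. For ZIC1, RFX4 and EDNRB the sign of the FGF2 difference varied between sets. Over the 9 co-culture arrays the levels of ZIC1, RFX4 and EDNRB ran closely together (Pearson r 0.984 for ZIC1 with RFX4, 0.981 for RFX4 with EDNRB and 0.970 for ZIC1 with EDNRB), NES followed them at 0.901 to 0.918, and ZIC2 had r between -0.48 and 0.18 with the other members. These correlations describe 9 arrays that share groups and sets.

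In PA6 cells alone no member was called with either factor. By limma 0 of 7 members were called with FGF2 and 0 with BMP4, and 0 had an unadjusted p under 0.05 in either comparison, where 5.27% and 1.41% of all genes were called. As the probes lay at background there, or close to it for SOX11, these comparisons say little about the members. The difference of the FGF2 effect between culture types was called for ZIC2 (-1.55 ± 0.296; adjusted p 0.00329), 1 of 7 members where 7.39% of all genes were called, and with the block for SOX11 too (-1.03; adjusted p 0.0433), where 8.28% were called. The difference of the BMP4 effect was called for 0 of 7 members (0.559% of all genes), although 6 had an unadjusted p under 0.05. With the block it was called for 4, against 1.85% of all genes: EDNRB (-3.95; adjusted p 0.00104), NES (-1.87; 0.0184), RFX4 (-2.78; 0.0237) and ZIC1 (-3.52; 0.0272), against 0.122 to 0.468 without it. The probes of these 4 and of ZIC2 were detected on no PA6 array, so a fall in PA6 cells could not have been measured. In the BMP4 co-cultures ZIC1 and RFX4 were undetected too and EDNRB was detected on 1 array, so their differences are no measured sizes.

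Other genes of the same tissues were read from fixed lists, which were also chosen with earlier results of these data known. In co-cultures with BMP4, 0.450% of all genes were called lower and 0.760% in either direction, and with FGF2 1.20% and 3.34%. Beside these shares the list counts are a description and no test. Of 35 neural plate and neural progenitor genes 21 were tested. Without a factor 13 of these were called higher in co-cultures than in PA6 cells alone and 3 lower (OTX1, EN1 and ZFP521), so part of the list also reads the stroma. With BMP4 0 were called higher and 3 lower, the progenitor factor SOX21 (-2.12; adjusted p 0.00628), GBX2, a factor of the midbrain-hindbrain boundary (-1.76; 0.0426) and the retinoic acid binding protein CRABP2 (-2.08; 0.0766), and the list's median was -0.50 against -0.0035 over all genes. With the block DLL1 and FOXD4 were also called lower and NR2F1 higher. SOX2, the SOXB1 relative of SOX3, differed by 0.30 with BMP4 and 0.45 with FGF2 and was not called.

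With FGF2 5 neural plate genes fell and 1 rose, with a list median of 0.00. OTX2 (-2.51) and POU3F1 (-3.01), forebrain factors that the epiblast also expresses, fell with adjusted p 1.88e-07 and 1.08e-06, the Notch ligand DLL1 fell by 1.83 (0.00092), FOXD4 was at least 1.63-fold lower (0.0459), and EN2, a midbrain and hindbrain factor, rose by 1.03 (0.0264). NR2F1, listed under its older name EAR3, fell by 3.01 (0.00039), and was also lower with FGF2 in PA6 cells alone (8.30 against 5.95). Between FGF2 and BMP4, SOX21 (2.12), GBX2 (1.67), EN2 (1.55) and NCAM1 (1.09) were higher with FGF2, and OTX2 (-2.21), POU3F1 (-2.10) and NR2F1 (-4.11) were lower. In PA6 cells alone SOX21 (8.02 against 6.94) and NCAM1 (6.75 against 5.46) were also called higher with FGF2, and NCAM1 with BMP4 too (8.18).

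**Figure D4:**
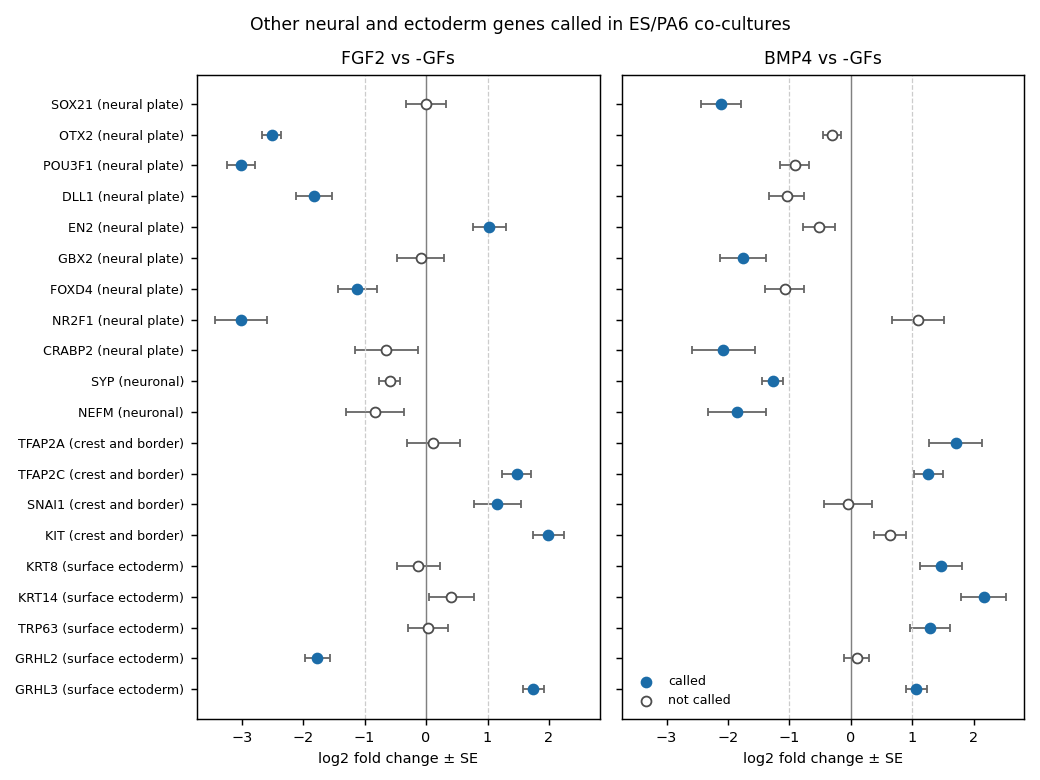
Log2 fold change ± SE with FGF2 (left) and BMP4 (right) against -GFs in co-cultures, for the neural plate, neuronal, crest and border, and surface ectoderm list genes called in at least 1 of these comparisons; filled points were called. Both panels share the same -GFs arrays; SOX21, GBX2 and CRABP2 are among the filled points below 0 in the BMP4 panel, and OTX2, POU3F1 and NR2F1 among those in the FGF2 panel.

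Of 10 neuronal genes 8 were tested. With BMP4 2 fell, the synaptic vesicle protein SYP by 1.27 (adjusted p 0.00385) and the neurofilament NEFM at least 2.62-fold (0.0827), with a list median of -1.07, and with the block DCX (adjusted p 0.0499) and MAP2 (0.0768) were called lower as well. With FGF2 0 of the 8 were called by limma with or without the block, 2 having an unadjusted p under 0.05, and between FGF2 and BMP4 DCX, a microtubule protein of young neurons, was at least 1.82-fold higher with FGF2 (0.0419).

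Of 21 neural crest and border genes 13 were tested. With BMP4 TFAP2A (1.70; adjusted p 0.0815) and TFAP2C (1.26; 0.0196), which also act in surface ectoderm, rose and none fell, with a median of 0.19, although TFAP2B was called lower with the block (-1.10). With FGF2 TFAP2C (1.48), SNAI1 (1.16) and KIT (1.99) rose, and NANOG and ZFP42 rose in the same arrays. SNAI1 was also called higher with FGF2 in PA6 cells alone (11.47 against 9.87, limma adjusted p 0.00988), so its rise in co-cultures cannot be assigned to either cell type. Of the endothelin system 4 of 6 genes were tested. The second receptor EDNRA (10.50, 10.997 and 10.67 with no factor, FGF2 and BMP4), the ligand EDN1 (6.60, 6.83 and 6.76) and the processing enzyme ECE1 (10.05, 10.01 and 9.81) were called by limma in no co-culture comparison (unadjusted p under 0.05 for 0 of the 4 with FGF2 and 1 with BMP4), and all 3 were also detected in PA6 cells alone.

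Relatives of the members in the SOXB1, SOXC, RFX and intermediate filament families (8 of 12 tested) had 0 limma calls in the co-cultures with either factor, with an unadjusted p under 0.05 in 4 with FGF2 and 1 with BMP4. Of 11 BMP target and inhibitor genes 8 were tested. In the BMP4 co-cultures 0 were called by limma (median 0.46), though 6 had an unadjusted p under 0.05, ID1 differing by 1.01 (adjusted p 0.396) and ID3 by 0.62 (0.261), whereas in PA6 cells alone 6 rose with BMP4, ID1 by 4.31 and ID3 by 3.07. The difference of the BMP4 effect between the culture types was called for ID1 (-3.29; adjusted p 0.033), ID2 (-2.67; 0.0118) and ID3 (-2.45; 0.00141).

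For each tested member the genes with the most similar course over the 9 co-culture arrays were named by Pearson r, as a description. LOC100046207 came first for ZIC1 (0.985), RFX4 (0.990) and EDNRB (0.988), followed by NSG2 for ZIC1 (0.973), DPYSL4 for RFX4 (0.982) and CDK5R1 for EDNRB (0.986). NES was closest to SHD (0.990), SOX3 to D930042A21RIK (0.976) and SOX11 to 4732462B05RIK (0.974). ZIC2 was closest to INMT (0.992) and DPEP1 (0.982). No gene was named for more than 1 member apart from LOC100046207 and CDK5R1.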

How the data were processed

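The table deposited by the authors holds non-normalized probe intensities and detection p-values from GenomeStudio 2011.01, per the labels and the study's methods. Its 5 stray lines were left out. Background was corrected and arrays were normalized with neqc (limma 3.58.1, R 4.3.3, offset 16), giving log2 intensity, which understates folds of dim genes. The study's methods name a cubic spline here. Probes detected (p under 0.05) on 3 arrays were kept (22987), 1 per gene by largest mean (16446 genes). Following the study's thresholds, a single limma fit of 6 group means over all arrays was used, with Benjamini-Hochberg adjustment over all genes, and the fit was tested on simulated data. Numbers paired the co-culture arrays: same-numbered arrays deviated together in 9 of 9 pairs (r 0.325 to 0.521), as the labels describe wells of 1 biological replicate, against 0.0628 to 0.164 in PA6 cells. A probe undetected on all 3 arrays of a group took, per array, the higher of the lowest detected signal and its own. Alternatives covered normalization, filters, probes, the block, weights, thresholds and left-out arrays. Named were the members, list genes called in co-cultures and the 3 genes most like each member. Of 131 list genes 130 were on the array (8 under older names) and 93 were tested. Members and lists were chosen with earlier results of these data known. Slides are not given in the sources used here.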

Additional observations from a re-analysis of the deposited data

Results flagged for a closer look

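The effect of FGF2 on ZIC2 differed between the culture types: it was -1.65 on the log2 scale in ES/PA6 co-cultures and -0.10 in PA6 cells alone, a difference of -1.55 (limma interaction, adjusted p 0.00329; adjusted p 5.93e-05 with the replicate block). The ZIC2 probe was detected on all 9 co-culture arrays and on 0 PA6 arrays, so a fall in PA6 cells could not have been measured.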

How the results depend on the processing

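Of 1197 recomputed member values, 1130 kept their direction and their side of the thresholds and 0 called values reversed. Requiring detection on all 18 arrays left no member to test. For BMP4 against -GFs in co-cultures (3 members called), the count was 5 with the replicate block, 0 in a fit of the co-culture arrays alone, 1 at an adjusted p under 0.05, and 1 to 5 with any 1 array left out. With set 1, 2 or 3 left out, a choice made after seeing the data, it was 5, 0 and 1. For FGF2 against -GFs (1 called) it was 2 with array weights, 2 with set 3 left out and 1 to 2 with any 1 array left out (2 without -GFs replicate 1 or FGF2 replicate 3), ZIC2 being called each time. For FGF2 against BMP4 (4 called) it was 2 in the fit of the co-culture arrays alone and 1 with set 2 left out. For the difference of the FGF2 effect between culture types (1 called) it was 2 with the block, with array weights and with set 3 left out, and 1 to 2 with any 1 array left out. For that of the BMP4 effect (0 called) it was 1 with median scaling, 4 with the block, 1 with array weights, 5 with set 1 and 1 with set 3 left out, and 0 to 3 with any 1 array left out (3 without ES/PA6 -GFs replicate 1). The cause of these shifts was not tested. Fits of all 18 arrays share 1 estimate of the spread between co-cultures and PA6 cells, while the fit of the co-culture arrays alone does not. The SD of ZIC1, for example, was 0.0651 to 0.552 in the PA6 groups, where it was undetected, and 0.119 to 1.86 in the co-culture groups. The adjusted p-values of the main fit thus also draw on arrays without a detected signal for most members. Without a filter on dim probes ZIC5 was tested and not called in any comparison. The number of arrays and signal near background limit the precision.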
